A study of Mus musculus with 9 samples.

Results

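Liver gene expression was compared between obese mice given 50 mg/kg body weight of an extract of Vigna umbellata, the rice bean (VE50), and obese mice given the vehicle. The comparison uses the 6 arrays whose labels name these groups, 3 per group, of the 9 arrays in the series. The other 3 come from mice given 100 mg/kg (VE100), which enter the fit for its estimate of spread and are set beside some results. All 9 arrays were hybridised with liver RNA of male C57BL/6JHamSlc-ob/ob mice, whose leptin gene is not functional. The mice were obtained at the age of 6 weeks, kept for a week on standard chow and then dosed by gavage until day 42, on a 12 h light cycle. The labels number the arrays of a group without saying that each came from its own mouse, so the p-values measure the spread between these arrays, part of which may be technical. The time of day of tissue collection and the fasting state are not given in the sources used here.

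The Clariom S array reads each transcript with a probe set, and its signal is given on the log2 scale, where a difference of 1 is a doubling. Of 22206 probe sets, 21340 carry a single gene symbol, and these are described here. The ob/ob mouse eats in excess and becomes obese, with high blood insulin and a liver filled with triglyceride. In normal liver, insulin signalling through IRS1 and IRS2 restrains the transcription factor FOXO1 and favours glycogen and fat synthesis. Glucocorticoid hormone opposes part of this, and the circadian clock sets the daily level of many of the same enzymes.

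No probe set differed between VE50 and vehicle at an adjusted p under 0.05 (limma, Benjamini-Hochberg over 22206 probe sets). The smallest adjusted p was 0.794, while 1358 probe sets had an unadjusted p under 0.05. The study itself called genes at an unadjusted p under 0.05 and more than 1.1-fold, and every probe set at that p also passed the fold. Among single-symbol probe sets, 1307 (6.12%) met this criterion, 709 with higher signal in VE50 (3.32%) and 598 with lower signal (2.8%). All 3 VE50 arrays lay above all 3 vehicle arrays for 6.17% of single-symbol probe sets and below them for 4.7%. These shares are the background against which the counts in gene groups are read. A typical difference was small next to its error: the median size was 0.22 on the log2 scale, the median standard error 0.28. Fold changes above 2 were found for 242 single-symbol probe sets, 94 higher and 148 lower.

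Vehicle 3 stood apart from the other arrays. Its signals correlated across genes at 0.948 to 0.967 with the other 8, which correlated at 0.974 to 0.990 among themselves. As a measure of detection, signals were set against the upper 95th percentile of the array's negative controls. The share of probe sets above it was 20.2% and 20.0% in vehicle 1 and 2, 14.3% in vehicle 3, and 16.6% to 17.6% in VE50. Without vehicle 3, 13.4% of single-symbol probe sets met the study's criterion, 5.84% higher and 7.61% lower. Of the 1307, 875 kept the criterion in the same direction without this array and none changed sign. Leaving out each of the 6 arrays in turn, 294 single-symbol probe sets kept the criterion every time (1.38% of all), 173 higher and 121 lower. Genes that kept it in all 6 of these fits are called stable here. Where the arrays of the groups do not overlap, the direction is the same in each of these fits by construction, so the word speaks of the criterion alone. For the rest, the array whose removal ends the call is named.

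Many of the genes described were dim. Irs2, Bcl6, Wsb1, Oscp1, Pim3, Zfp532, Lonrf3, Arntl, Cebpb, Cebpd, Hk1, Srsf7, Cyp4f13, Eif2ak3, Vdr and Plekhm2 exceeded the negative control percentile on 0 of the 6 vehicle and VE50 arrays. Ciart, Angptl8, Plekhb1, Mmd2, Foxo1 and Rbm5 exceeded it on 1, Nr1d1, Onecut1, Zbtb16, Slc48a1, Slc30a10, Tra2a and Luc7l3 on 2, and Arhgef26 and Clk1 on 3. The sizes of their differences are uncertain for that reason, and no fold is given for them.

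Gys2 and Ppp1r3b, which promote glycogen synthesis in hepatocytes, lay higher in VE50, and the insulin receptor substrate Irs2 lay lower. Gys2 encodes the liver glycogen synthase. Its log2 signal was 11.32, 11.67 and 11.87 in the 3 vehicle arrays and 12.48, 12.91 and 12.46 in the 3 VE50 arrays, so that the groups did not overlap. The difference was 1.0 ± 0.24 (SE, n = 3 per group). Ppp1r3b, which targets protein phosphatase 1 to glycogen and activates the synthase, read 11.24, 11.89 and 11.39 against 12.54, 12.67 and 12.24, a difference of 0.98 ± 0.24 with no overlap. Both genes were stable.

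Irs2 couples the insulin receptor to phosphatidylinositol 3-kinase. It read 6.80, 5.81 and 6.47 in vehicle and 5.03, 5.30 and 5.15 in VE50, with all VE50 arrays lower. The difference was -1.20 ± 0.26. Foxo1 encodes the transcription factor that insulin excludes from the nucleus and that drives glucose production, and Irs2 is among its known targets. Foxo1 signal was 7.72, 7.95 and 7.52 in vehicle and 8.25, 8.68 and 9.22 in VE50. This is a difference of 0.99 ± 0.30 in the direction opposite to Irs2, also without overlap. Both genes were stable, but their signals were dim: Irs2 lay below the 95th percentile of negative controls on all 6 arrays and Foxo1 on 5 of them.

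Most other members of these pathways did not meet the criterion. Of 22 insulin signalling genes measured, 1 met the study's criterion in each direction, Foxo1 and Irs2, and the median difference was 0.00. Of 26 genes of glycolysis and gluconeogenesis, 1 met it with higher and 1, Hk1, with lower signal, and the median was 0.06. Hk1, the hexokinase of most other tissues, differed by -1.03 ± 0.37, which no longer met the criterion without vehicle 2 (-0.86) or VE50 1 (-0.63). Gys2 and Ppp1r3b were the 2 past the criterion of 17 glycogen genes, of which 7 lay below 0, and the median was 0.07. Over all single-symbol probe sets the median difference was -0.01. Without vehicle 3 the insulin list median was -0.34, with 17 of its 22 genes below 0, 3 higher and 8 lower past the criterion, where 51.9% of all single-symbol probe sets lay above 0. The glycolysis and gluconeogenesis median was then -0.11, with 1 higher and 6 lower. The glycogen median was -0.10, with 10 of 17 below 0, 3 higher and 1 lower.

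**Figure D1:**
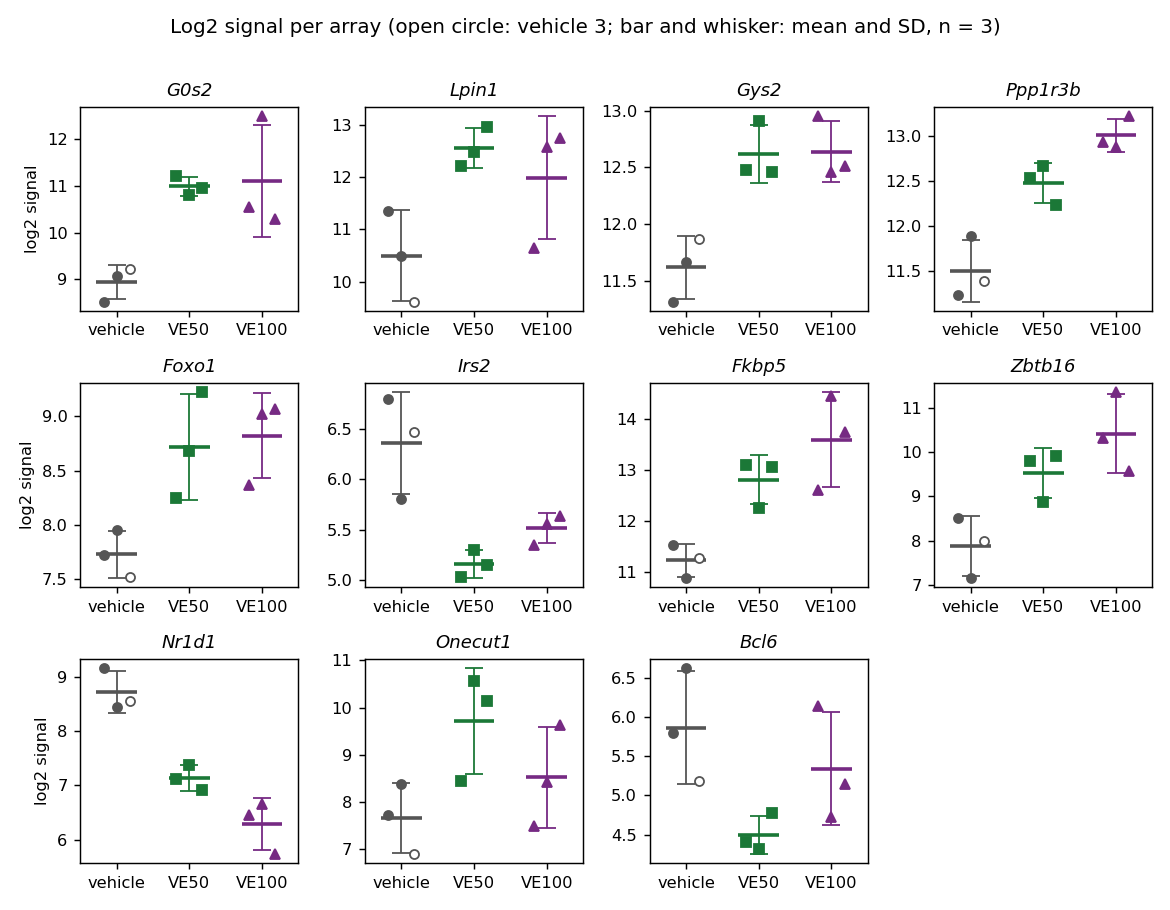
Log2 signal (y axis) of 11 genes in each array, with vehicle in grey, VE50 in green and VE100 in purple; the open circle is vehicle 3, the horizontal bar the group mean and the whisker the SD of 3 arrays. VE50 and vehicle do not overlap in any of the 11, while VE100 overlaps vehicle for Lpin1, Onecut1 and Bcl6.

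Lpin1, G0s2 and Ces1d, genes of triglyceride handling, were higher in VE50. Lpin1 encodes lipin 1, the phosphatidate phosphatase that makes diacylglycerol and that also acts as a transcriptional coactivator in liver. Its signal was 11.36, 10.50 and 9.62 in vehicle and 12.21, 12.48 and 12.96 in VE50, which leaves a gap between the highest vehicle and the lowest VE50 array. The difference was 2.06 ± 0.57, a fold of 4.16. G0s2, an inhibitor of adipose triglyceride lipase, read 8.52, 9.07 and 9.22 in vehicle and 11.21, 10.81 and 10.95 in VE50. Its difference was 2.05 ± 0.49, or 4.15-fold, with the groups far apart. Ces1d, a carboxylesterase that hydrolyses stored triglyceride, read 15.14, 15.78 and 15.59 against 16.74, 16.10 and 16.53, higher by 0.95 ± 0.27 without overlap. These 3 were stable.

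Other lipid genes depended more on single arrays. Aacs, which activates acetoacetate for lipid synthesis in the cytosol, differed by 1.35 ± 0.41 and kept the criterion throughout, though vehicle 3 was its lowest array at 8.42 and the difference was 0.85 without it. Thrsp (Spot 14), a lipogenic protein of liver and fat, differed by 0.73 ± 0.27; without vehicle 3 (0.45) or VE50 1 (0.71) it did not meet the criterion. Angptl8, a secreted inhibitor of lipoprotein lipase that is induced by feeding, read 6.82, 7.92 and 7.02 in vehicle and 7.95, 8.92 and 9.03 in VE50. The lowest VE50 array and the highest vehicle array were nearly level. The difference of 1.38 ± 0.46 lost the criterion without VE50 3 (1.18). Angptl4, another lipase inhibitor, differed by 0.95 ± 0.37 and lost it without vehicle 3 (0.74), VE50 1 (0.73) or VE50 3 (0.91).

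Few other lipid genes met the criterion. Among 19 fatty acid synthesis genes, 2 met the criterion, Aacs and Thrsp, 11 lay below 0, and the median was -0.05. Of 32 PPAR alpha and fatty acid oxidation genes and 25 cholesterol synthesis and uptake genes, none met it in either direction, with medians of 0.02 and 0.03. Lpin1 was the single triglyceride assembly gene past the criterion, of 14 measured, 8 of which lay below 0. G0s2 and Ces1d were the 2 past it of 20 lipolysis and lipid droplet genes, of which 5 lay below 0, with a median of 0.21. Bile acid genes had a median of -0.11, with 0 of 23 past the criterion. These values depended on vehicle 3. Without it the fatty acid synthesis median was -0.41, with 1 gene higher and 6 lower past the criterion. The medians were -0.18 for PPAR alpha and fatty acid oxidation (1 higher, 5 lower) and -0.22 for cholesterol genes (1 higher, 6 lower). The triglyceride assembly median moved from -0.07 to -0.18 (1 higher, 4 lower), and that of bile acid genes to -0.41, with 19 of 23 below 0 (1 higher, 4 lower). That of lipolysis and lipid droplet genes moved to 0.04, with 10 of 20 below 0 (2 higher, 1 lower).

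Among the 61 gene lists, splicing regulators had the most members past the criterion in a single direction. SR proteins bind exonic RNA and recruit the spliceosome, CLK kinases phosphorylate them in the nucleus, and several of these transcripts carry detained introns or poison exons that limit their own level. Of 28 measured, 26 had a higher mean in VE50 than in vehicle, against 49% of all single-symbol probe sets. The criterion was met by 12, all higher (3.32% of all, and 4.6% of probe sets above the median signal), and 15 had VE50 arrays wholly above vehicle (6.17% of all). The median difference was 0.55.

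Clk4, a dual-specificity kinase of SR proteins, read 10.07, 9.89 and 9.91 in vehicle and 11.34, 11.44 and 10.96 in VE50. The vehicle arrays lay close together and every VE50 array was higher. The difference was 1.29 ± 0.25, a fold of 2.45. Its relative Clk1 read 7.63, 7.94 and 8.36 against 9.42, 8.79 and 9.17, a difference of 1.15 ± 0.28 without overlap. Rsrp1, which encodes an arginine- and serine-rich protein, read 11.20, 12.02 and 10.44 against 12.19, 12.79 and 12.83, and here the lowest VE50 array exceeded the highest vehicle array narrowly. Its difference was 1.38 ± 0.37. Rbm39, a splicing factor related to U2AF2, differed by 0.96 ± 0.26, and Prpf4b, a kinase of the pre-mRNA splicing machinery, by 0.77 ± 0.21. These 5 genes were stable.

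For the other 7, removing 1 array ended the call. Srsf2 differed by 0.87 ± 0.29 and lost the criterion without vehicle 1 (0.59), as did Son, a large nuclear speckle protein, at 0.58 ± 0.20 (0.47). Srsf7, at 0.79 ± 0.29, lost it without vehicle 1 (0.58) or VE50 1 (0.75). Luc7l3, a U1 snRNP-associated protein, at 1.06 ± 0.35, and Rbm5, at 0.76 ± 0.25, lost it without VE50 2 (0.90 and 0.62). Tra2a, at 0.77 ± 0.28, lost it without vehicle 2 (0.71), VE50 1 (0.66) or VE50 3 (0.70). Rbm3, an RNA-binding protein induced by cold, differed by 0.86 ± 0.39 and kept the criterion in 2 of the 6 fits, those without vehicle 1 or vehicle 3. It had 0.52 without vehicle 2, 0.64 without VE50 1, 0.95 without VE50 2 and 1.0 without VE50 3. It also lost the criterion without VE100 1 or VE100 3, which enter through the estimate of spread.

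The group's median lay between 0.50 and 0.68 when each vehicle or VE50 array was left out, and 9 to 14 members met the criterion. Without vehicle 3 there were 12 higher and 1 lower, Srrm2, a scaffold of nuclear speckles. Srrm2 read 14.44, 14.50 and 9.82 in vehicle and 11.56, 14.09 and 13.49 in VE50, and its difference was 0.13 ± 1.11 with all arrays and -1.42 without vehicle 3. The VE100 arrays, set against the same vehicle arrays, had a list median of 0.62, with 14 members higher (5.12% of all single-symbol probe sets in that comparison) and none lower past the criterion. Of 22 measured hnRNP genes, whose proteins package nascent RNA, 3 met the criterion, all higher (3.32% of all). Their median was 0.26 (0.15 without vehicle 3, with 1 higher and 3 lower). The 3 were Hnrnpdl (0.82 ± 0.31), Hnrnpm (1.08 ± 0.41) and Hnrnpu (0.47 ± 0.21), and none was stable. Hnrnpdl lost the criterion without vehicle 1 (0.49) or VE50 2 (0.71), and Hnrnpm without vehicle 3 (0.64) or VE50 2 (0.90). Hnrnpu lost it in every one of these fits but that without VE50 2, and was at 0.32 without VE50 1.

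**Figure D2:**
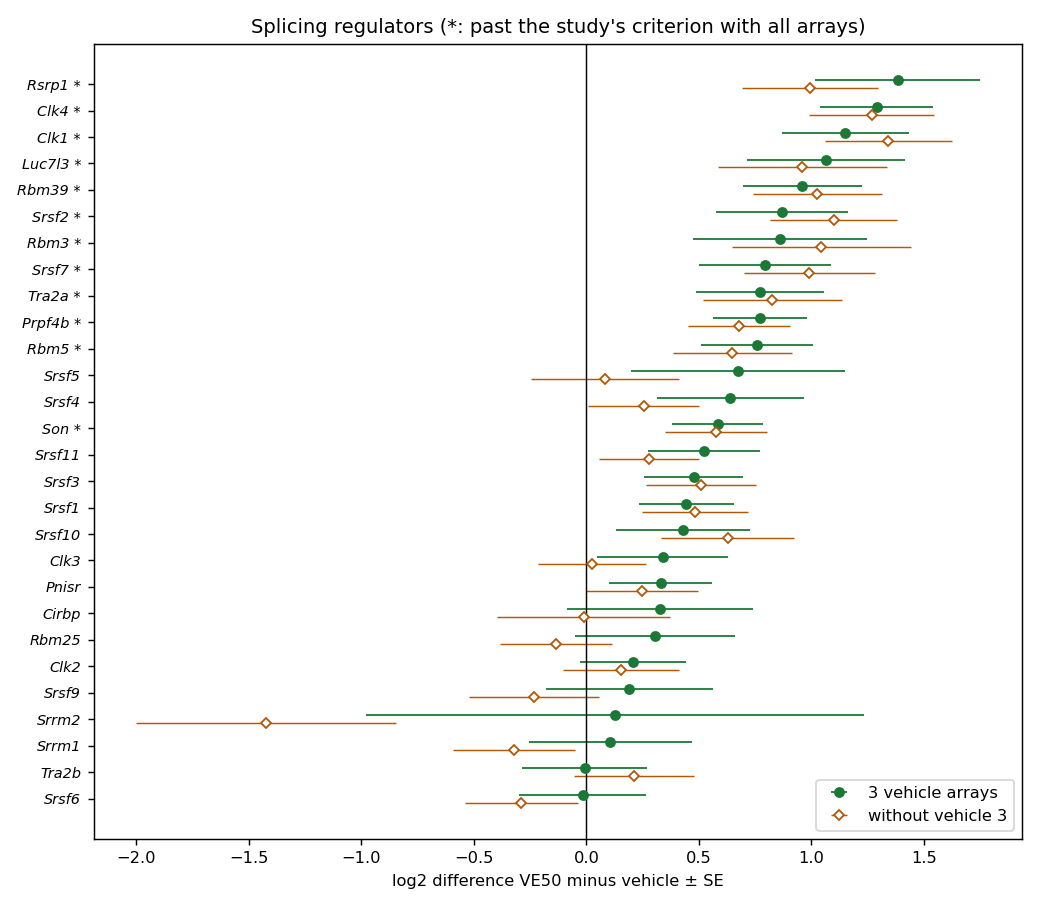
Log2 difference VE50 minus vehicle (x axis) for the 28 splicing regulators, with all 3 vehicle arrays (filled circles) and without vehicle 3 (open diamonds); whiskers are standard errors and asterisks mark the 12 genes past the study's criterion. All 12 marked genes lie above 0 in both fits, and Srrm2 moves from 0.13 to -1.42 when vehicle 3 is left out.

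Several genes induced by glucocorticoid hormone were higher in VE50. The glucocorticoid receptor is a nuclear receptor that, once bound by corticosterone, switches on genes for gluconeogenesis and for its own feedback. Fkbp5, the chaperone that lowers the receptor's hormone affinity, read 11.53, 10.90 and 11.28 in vehicle, 13.10, 12.26 and 13.07 in VE50 and 12.61, 14.44 and 13.74 in VE100. Zbtb16, a zinc finger transcription factor, read 8.50, 7.16 and 7.99, 9.80, 8.87 and 9.91 and 10.32, 11.36 and 9.58 in the same order of groups. For both, all VE50 arrays exceeded all vehicle arrays, and both were stable, with differences of 1.57 ± 0.43 and 1.64 ± 0.49. VE100 shares the vehicle arrays with this comparison. Its mean lay above that of VE50 for both genes, with the 3 arrays of each dose overlapping, and the difference between doses had an adjusted p of 1.0 by limma.

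Of 21 glucocorticoid targets measured, 15 lay above 0, against 49% of all single-symbol probe sets. The criterion was met by 5, all higher (3.32% of all), and the median was 0.32. Besides Fkbp5 and Zbtb16 these were Tsc22d3, Cebpd and Angptl4. Tsc22d3, the leucine zipper GILZ, differed by 1.16 ± 0.39 and lost the criterion without VE50 3 (1.01). Cebpd, a C/EBP transcription factor, differed by 0.92 ± 0.32 and lost it without VE50 1 (0.84) or VE50 3 (0.71). Another 6 targets lay below 0, none of them past the criterion. The lowest was the metallothionein gene Mt2, at -2.20, the largest difference of the list in either direction. The median without vehicle 3 was 0.10, with 4 genes past the criterion, all higher (5.84% of all single-symbol probe sets in that fit). The count ran from 2 without VE50 3 (with 1 lower) to 8 without vehicle 1. Cebpb, another C/EBP factor that carries both hormone and stress signals and is listed here under ATF4 targets, differed by 1.05 ± 0.34 and lost the criterion without VE50 3 (0.82).

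Clock genes differed from vehicle in both directions. In the liver clock, CLOCK and ARNTL (BMAL1) bind E-boxes with the letters CACGTG and drive their own repressors, among them CIART and NR1D1 (REV-ERB alpha), which in turn represses Arntl. The promoter windows from 250 bases before to 50 after the RefSeq start (GRCm38.p6) are shown for Nr1d1, Ciart and Lonrf3, with CACGTG in capitals. Their windows are chr11:98775328-98775627 on the minus strand for Nr1d1, chr3:95882179-95882478 on the minus strand for Ciart and chrX:36328159-36328458 on the plus strand for Lonrf3, a RING finger gene of the clock output list.
Nr1d1: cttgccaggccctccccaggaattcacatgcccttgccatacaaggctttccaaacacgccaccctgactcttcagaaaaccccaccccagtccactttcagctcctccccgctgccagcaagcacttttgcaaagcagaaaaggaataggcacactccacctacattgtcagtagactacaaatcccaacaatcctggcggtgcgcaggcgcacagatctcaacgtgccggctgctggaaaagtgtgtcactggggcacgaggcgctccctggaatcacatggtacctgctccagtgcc
Ciart: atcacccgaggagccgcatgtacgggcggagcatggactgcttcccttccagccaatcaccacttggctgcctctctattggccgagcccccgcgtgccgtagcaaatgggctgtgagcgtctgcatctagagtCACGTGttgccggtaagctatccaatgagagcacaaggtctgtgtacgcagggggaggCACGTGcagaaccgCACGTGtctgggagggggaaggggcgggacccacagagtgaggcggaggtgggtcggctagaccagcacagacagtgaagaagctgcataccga
Lonrf3: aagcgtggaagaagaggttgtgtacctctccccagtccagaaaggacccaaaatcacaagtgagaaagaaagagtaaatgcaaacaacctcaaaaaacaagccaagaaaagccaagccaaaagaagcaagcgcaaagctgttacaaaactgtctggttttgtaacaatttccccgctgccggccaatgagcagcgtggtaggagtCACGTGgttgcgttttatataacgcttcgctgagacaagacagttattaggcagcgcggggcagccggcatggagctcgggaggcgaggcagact
CACGTG is its own reverse complement, so both strands are covered. The Ciart window holds it at 3 places, starting at -116, -58 and -44 from the start, the Lonrf3 window at -45, and the Nr1d1 window does not hold these letters. Of all 32851 RefSeq windows of this length, 7.15% hold at least 1. Of the 6 clock genes looked up, those past the criterion, 5 had a window. The windows of Arntl, lower in VE50, and Dbp, higher in VE50, do not hold CACGTG either. E-boxes outside these windows were not looked for.

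Nr1d1 had, with Plekhb1, the lowest difference of the genes chosen by size and separation. It read 9.16, 8.44 and 8.55 in vehicle and 7.11, 7.38 and 6.91 in VE50, and 6.46, 6.65 and 5.74 in VE100. All VE50 arrays lay more than 1 unit below the lowest vehicle array, with a difference of -1.58 ± 0.30, and the gene was stable. Signal was above the negative control percentile on 2 of the 6 arrays. Ciart read 7.92, 7.56 and 5.96 in vehicle and 7.96, 8.81 and 9.10 in VE50, with the groups nearly touching. Its difference of 1.48 ± 0.58 lost the criterion without vehicle 3 (0.88), VE50 2 (1.38) or VE50 3 (1.24). Lonrf3 read 5.23, 5.20 and 4.24 against 5.84, 5.90 and 5.93, a stable difference of 1.0 ± 0.29.

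Dbp, a PAR bZIP transcription factor at the output of the clock, read 12.53, 12.95 and 11.52 in vehicle, 13.11, 13.73 and 13.28 in VE50 and 12.16, 12.42 and 12.30 in VE100. The VE50 arrays were the highest of the 9. The difference from vehicle was 1.04 ± 0.34, at 0.63 without vehicle 3 and short of the criterion without VE50 2 (0.86). Arntl differed by -0.69 ± 0.29, with overlapping arrays and signal below the negative control percentile on all 6. It lost the criterion without vehicle 1 (-0.59), vehicle 3 (-0.63), VE50 1 (-0.44) or VE50 3 (-0.67). Over 17 core clock genes, 1 was higher and 2 lower past the criterion, with a median of 0.21 that became -0.38 without vehicle 3 (1 higher and 5 lower). The 14 output genes had 3 higher past the criterion (Dbp, Lonrf3 and Gys2), against 3.32% of all single-symbol probe sets. Their median was 0.44, which became -0.20 without vehicle 3.

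Alas1 and Por, both needed for cytochrome P450 activity, were higher in VE50. Alas1 encodes the rate-limiting enzyme of heme synthesis in liver and read 15.60, 16.53 and 13.32 in vehicle and 17.27, 17.48 and 17.04 in VE50. The groups did not overlap and vehicle 3 was far below the other arrays. The difference was 2.11 ± 0.66 with all arrays and 1.20 without vehicle 3. Por, the reductase that passes electrons to P450 enzymes, read 14.33, 14.62 and 12.28 against 15.15, 15.21 and 15.43. Here too vehicle 3 was the lowest, and the difference was 1.52 ± 0.52, or 0.79 without it. Both genes were stable.

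Among the P450 genes few differences met the criterion. Of 34 in the list, Por was the 1 higher and Cyp4f13 (-0.80 ± 0.31, short of the criterion without vehicle 1 at -0.60 or VE50 2 at -0.64) the 1 lower, with 20 below 0 and a median of -0.12 (-0.50 without vehicle 3, with 1 higher and 5 lower). Of 15 genes of heme synthesis and breakdown, 4 met the criterion with higher signal (3.32% of all single-symbol probe sets). Fech was the 1 with lower signal (-0.62 ± 0.26), against 2.8% of all. Apart from Alas1 and Por, the higher ones were Blvrb, which reduces biliverdin and flavins, at 0.85 ± 0.37, and the mitochondrial glycine carrier Slc25a38 at 0.55 ± 0.23. Blvrb and Fech kept the criterion only in the fit without vehicle 3, where they were at 0.97 and -0.85, and Fech was at -0.42 without vehicle 1. Slc25a38 kept it without vehicle 2 or VE50 3 and was at 0.36 without vehicle 3. The list median was 0.14 and -0.19 without vehicle 3.

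Onecut1 and Bcl6, both transcription factor genes, differed from vehicle in opposite directions. Onecut1 (HNF6) supports the hepatocyte programme and responds to growth hormone. It read 7.71, 8.38 and 6.90 in vehicle and 8.44, 10.56 and 10.13 in VE50, where VE50 1 was only just above vehicle 2 and the other arrays were well apart. The difference was 2.05 ± 0.64. Bcl6, a repressor that competes with STAT5 and opposes growth hormone targets, read 5.79, 6.62 and 5.18 against 4.40, 4.32 and 4.77, lower in every VE50 array, with a difference of -1.37 ± 0.42. Both were stable, and Bcl6 signal lay below the negative control percentile on all 6 arrays.

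Over 18 growth hormone and STAT5 genes, 2 were higher and 1 lower past the criterion, with a median of 0.08 (0.04 without vehicle 3, with 2 higher and 4 lower). The other higher gene, Mup20, a major urinary protein made by liver under growth hormone, read 15.63, 16.53 and 18.04 in vehicle and 19.71, 18.15 and 17.83 in VE50. The groups overlapped. Its difference of 1.83 ± 0.61 lost the criterion without vehicle 1 (1.28) or VE50 1 (1.26). Major urinary protein genes are near-identical copies, so probe sets may read several of them. The lowest difference of the list was that of the P450 gene Cyp2d9, at -1.94, which did not meet the criterion. Among 19 hepatocyte transcription factors, 2 were higher and 1 lower past the criterion, and their median of 0.14 became -0.44 without vehicle 3 (2 higher and 5 lower). Besides Onecut1 these were Cebpb, higher, and Nr5a2 (LRH-1), at -0.52 ± 0.22. Nr5a2 lost the criterion without vehicle 2 (-0.48), vehicle 3 (-0.51), VE50 1 (-0.38), VE50 2 (-0.54) or VE100 2 (-0.52).

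Acute phase genes, which hepatocytes express at high level during inflammation, lay lower in VE50, and the group's median depended on vehicle 3. All 25 measured had a difference below 0, 4 met the criterion with lower signal (2.8% of all single-symbol probe sets), and the median was -0.45. Without vehicle 3 the median was -0.05, 12 of 25 lay above 0, and 1 was higher and 3 lower past the criterion (5.84% and 7.61% of all). The inducible member Saa2 read 10.61, 11.81 and 18.75 in vehicle and 11.71, 10.72 and 10.70 in VE50. Vehicle 3 stood far above the rest, and the difference was -2.68 ± 1.73 with it and -0.17 without it. Lcn2, another inducible gene, read 10.77, 10.25 and 15.71 against 12.34, 10.62 and 9.39, with vehicle 3 again the highest array. Saa1 and Saa2 are near-identical genes, so a probe set for 1 may read both.

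The 4 members past the criterion differed in where vehicle 3 lay. Saa4, the constitutive serum amyloid A protein of high-density lipoprotein, read 16.72, 17.05 and 16.15 in vehicle and 14.68, 15 and 15.70 in VE50, so that vehicle 3 was the lowest vehicle array and still above VE50. Lbp, which binds bacterial lipopolysaccharide, read 11.53, 11.40 and 11.03 against 10.58, 9.45 and 10.21, again with no overlap and vehicle 3 the lowest vehicle array. Serpina3n, a serine protease inhibitor, read 15.73, 15.83 and 16.18 against 15.07, 14.91 and 15.17, with vehicle 3 the highest array. All 3 were stable, with differences of -1.51 ± 0.45, -1.24 ± 0.36 and -0.86 ± 0.26, and of -1.76, -1.39 and -0.73 without vehicle 3. The fourth, Lrg1, at -0.94 ± 0.40, also had vehicle 3 as its highest array (12.35) and lost the criterion without vehicle 3 (-0.64), VE50 1 (-0.89) or VE50 3 (-0.73).

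**Figure D3:**
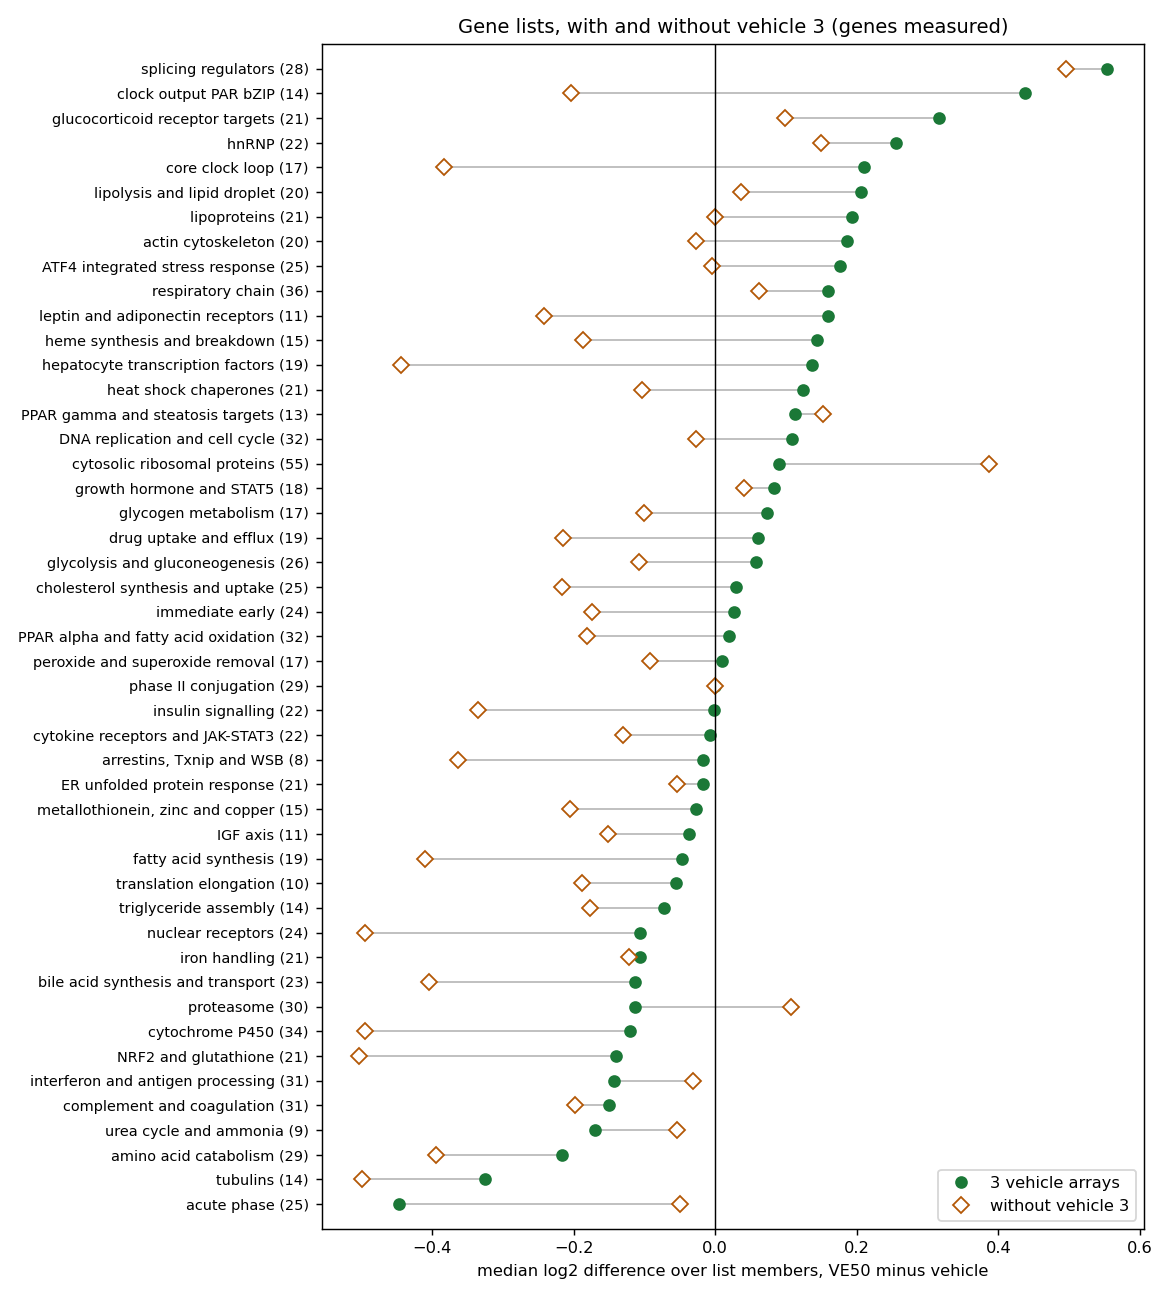
Median log2 difference VE50 minus vehicle (x axis) over the measured members of 47 gene lists (y axis, number of genes in brackets), with all vehicle arrays (filled circles) and without vehicle 3 (open diamonds); grey lines join the 2 medians of a list. Splicing regulators have the highest median in both fits, while the acute phase median moves from -0.45 to -0.05 and that of cytosolic ribosomal proteins from 0.09 to 0.39.

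Markers of cell types other than hepatocytes were mostly at background. All 14 hepatocyte markers exceeded the negative control percentile on all 6 arrays, with a summed level of 23.06 to 23.23 in vehicle and 23.11 to 23.21 in VE50 (log2 of the summed linear signal). Albumin read 19.93 on every one of these arrays, the upper end of the scale, so differences in the brightest genes could not be seen. Every measured marker of T, B and NK cells (15), neutrophils (12), striated muscle (10) and pancreas (12) was below the percentile on all 6. So was Lep, the gene mutated in these mice, though a probe can also read a mutant transcript. Of 23 macrophage markers, 16 were below it, and the list's summed level was 13.04 to 13.15 in vehicle and 12.21 to 13.24 in VE50.

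Cd163, the scavenger receptor of resident macrophages that takes up haemoglobin, was among the dim markers. It read 5.71, 6.49 and 5.22 in vehicle and 7.11, 7.26 and 6.87 in VE50, all higher, a stable difference of 1.27 ± 0.31. Adgre1, which encodes F4/80, read 6.67, 6.44 and 7.49 against 6.31, 6.23 and 6.04, a difference of -0.67 ± 0.28 without overlap, short of the criterion without vehicle 3 (-0.36), VE50 1 (-0.73), VE50 2 (-0.69) or VE50 3 (-0.60). The other 21 macrophage markers did not meet the criterion, and the list median was -0.01, from -0.34 to 0.21 with 1 array left out. In whole liver, fewer cells of a type and less RNA per cell cannot be told apart.

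Further stable differences fell in protein synthesis, transport and signalling. Eef1b2, a nucleotide exchange factor of translation elongation, differed by -0.76 ± 0.23, with VE100 at -1.95 from vehicle on the log2 scale. Edem1, which sends misfolded glycoproteins to degradation, differed by -0.82 ± 0.24, while Eif2ak3, the stress kinase PERK, was higher by 0.74 ± 0.23. They were the 2 genes past the criterion of 21 measured for the unfolded protein response, whose median was -0.02 (-0.05 without vehicle 3, with 2 higher and 3 lower). The 55 genes of cytosolic ribosomal proteins had a median difference of 0.09, and with 1 vehicle or VE50 array left out it ran from -0.06 to 0.39. With all arrays 1 of them was higher and 0 lower past the criterion. The same counts held when any vehicle or VE50 array other than vehicle 3 was left out. Without vehicle 3, 23 were higher (5.84% of all single-symbol probe sets in that fit) and the median was 0.39. In VE100 against vehicle the median was -0.14, with 2 higher and 3 lower.

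Slc30a10, a manganese exporter of liver, read 10, 10.22 and 9.49 in vehicle and 8.61, 9.21 and 8.80 in VE50, lower without overlap, a difference of -1.03 ± 0.26. Vdr, the vitamin D receptor, differed by -0.70 ± 0.21 and was below the negative control percentile throughout. Tubulin genes had 3 lower (2.8% of all single-symbol probe sets) and none higher past the criterion of 14 measured, with a median of -0.32. The median ran from -0.50 without VE50 2 to -0.04 without VE50 3, where 6 of 14 lay above 0, and was -0.16 without vehicle 1 and -0.12 in the deposited value table. Without vehicle 1, VE50 1 or VE50 3 none met the criterion. The 3 were Tuba4a (-1.36 ± 0.55), Tuba1b (-1.21 ± 0.50) and Tuba1c (-1.15 ± 0.47). Near-identical copies make tubulin probe sets hard to separate. None was stable. Tuba4a and Tuba1b kept the criterion only without vehicle 3, where they were at -2.07 and -1.86, and Tuba1c only without vehicle 3 or VE50 2. Without vehicle 1 the 3 genes were at -0.88, -0.69 and -0.77.

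Among the genes chosen by size and separation alone, the higher ones outside the lists were Arhgef26 (1.62 ± 0.33), a guanine nucleotide exchange factor, Oscp1 (1.42 ± 0.43), Pim3 (1.41 ± 0.48), a serine/threonine kinase, and Zfp532 (1.40 ± 0.33), a zinc finger protein. Wsb1, a SOCS-box protein of a ubiquitin ligase, read 4.11, 4.88 and 5.19 in vehicle and 5.93, 7.09 and 6.25 in VE50. All VE50 arrays were higher, by 1.7 ± 0.36. All of these were stable except Pim3, which was at 0.78 without vehicle 3 and lost the criterion without VE50 3 (1.15). The lower ones were Plekhb1 (-1.58 ± 0.49), Abhd4 (-1.42 ± 0.32), a lipase of N-acyl phospholipids, Ccni (-1.37 ± 0.37), cyclin I, Isoc1 (-1.36 ± 0.43), Tfpi2 (-1.29 ± 0.31), a serine protease inhibitor, and Clptm1l (-1.25 ± 0.27), and these 6 were stable.

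Another 4 of the lower genes were not. Arrdc3, an alpha-arrestin, at -1.46 ± 0.65, kept the criterion in 1 of the 6 fits, that without vehicle 2, and was at -1.10 without vehicle 3 and -1.04 without VE50 3. It also lost it without VE100 1. Atraid, at -1.42 ± 0.52, lost it without vehicle 1 (-1.02), vehicle 2 (-1.32) or VE50 2 (-1.29). Mmd2, at -1.40 ± 0.50, lost it without vehicle 1 (-0.76) or VE50 3 (-1.11). Il13ra1, a receptor chain for interleukins 4 and 13, at -1.27 ± 0.51, lost it without vehicle 3 (-0.64) or VE50 2 (-0.91).

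Leaving out vehicle 3 brought 10 probe sets with a single symbol past the adjusted threshold (0.0469% of all), 1 higher and 9 lower, with adjusted p from 0.0122 to 0.0494 by limma. The lower ones with the smallest p were Ddah1, Plekhm2, Gaa, Slc48a1 and Dhrs3. Ddah1, which degrades the nitric oxide synthase inhibitor dimethylarginine, read 14.56, 14.56 and 11.99 in vehicle and 12.38, 12.50 and 12.51 in VE50, so that vehicle 3 lay below every VE50 array. Its difference was -1.24 ± 0.57 with all arrays and -2.10 without vehicle 3. Gaa, the lysosomal enzyme that degrades glycogen, read 12.42, 11.70 and 7.35 against 9.73, 10.12 and 9.31, a difference of -0.77 ± 1.02 with all arrays and -2.34 without vehicle 3.

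In all 9 lower genes vehicle 3 was below the lowest VE50 array, and none of the 9 met the study's criterion with all arrays, which 1 of the 10 did. Plekhm2, a lysosome transport adaptor, was at -2.31 without vehicle 3, Slc48a1, a heme transporter, at -2.27, and Dhrs3, a retinal reductase, at -1.98. Control probe sets also separated vehicle 1 and 2 from VE50. The median of negative controls lay 3.88 and 3.79 below that of positive controls in vehicle 1 and 2, 3.41 in vehicle 3 and 3.38 to 3.53 in VE50. Without vehicle 3, treatment and this array-level difference cannot be told apart.

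**Figure D4:**
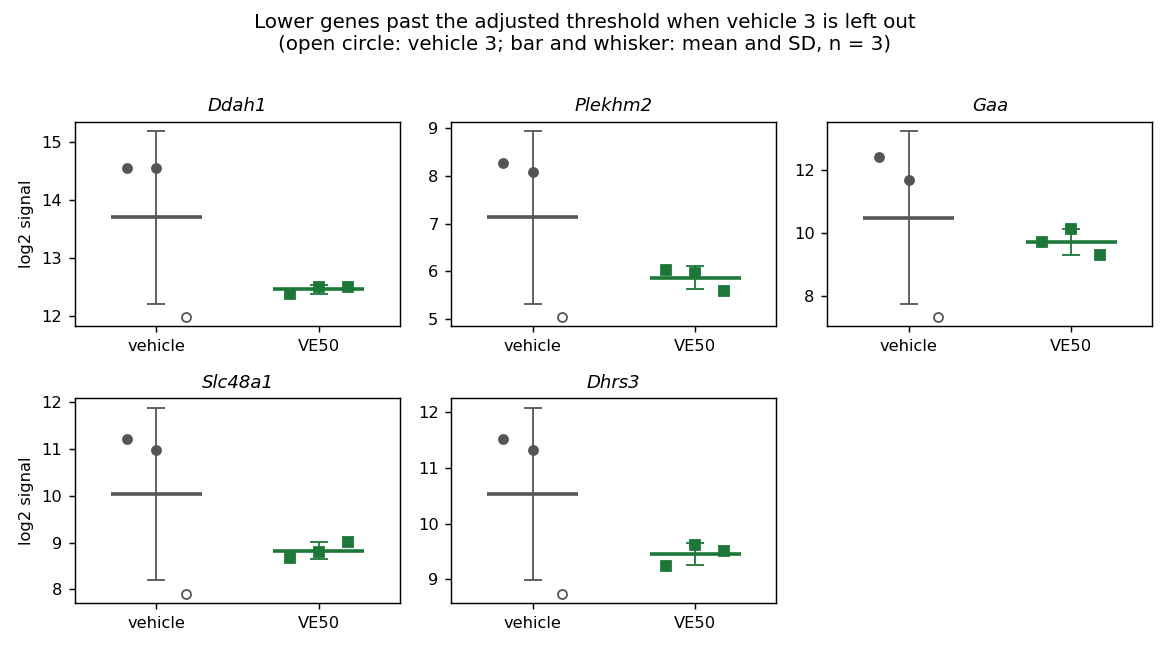
Log2 signal (y axis) of 5 lower genes past the adjusted threshold when vehicle 3 is left out, per array in vehicle (grey) and VE50 (green); the open circle is vehicle 3, bars are means and whiskers SD of all 3 arrays. In all 5 vehicle 3 lies below all VE50 arrays.

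At 100 mg/kg the signals of the stable genes can be read beside those at 50 mg/kg, with the same vehicle arrays behind both differences. Gys2 was at 12.95, 12.46 and 12.51 in VE100 and Ppp1r3b at 12.93, 12.88 and 13.22, all above their vehicle arrays. Ppp1r3b differed from vehicle by 1.50 in VE100 and 0.98 in VE50, and Nr1d1 by -2.43 and -1.58. Lpin1, Onecut1 and Bcl6, also stable at 50 mg/kg, had VE100 arrays that overlapped vehicle. Angptl8 and Dbp, which were not stable, differed by -0.05 and -0.04 in VE100, against 1.38 and 1.04 in VE50. No difference between the doses passed the adjusted threshold in limma (0 of 22206 probe sets, 647 at an unadjusted p under 0.05).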

How the data were processed

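Liver RNA was labelled with biotin and hybridised to Clariom S mouse arrays, per the labels' protocols. The log2 signals per probe set were made by the authors with Transcriptome Analysis Console 4.0.2 and its SST-RMA algorithm, as stated in the series' design text. This algorithm subtracts background, puts the arrays on a common distribution and combines the probes of a set; the submitters' processing notes name RMA and version 4. Such normalisation assumes similar signal distributions, so a shift of most genes in 1 array would be reduced. The deposited value table, also on the log2 scale, was used for control probe sets and as an alternative. The study's detection filter was not applied here.

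Group means were fitted for 22206 probe sets on the 9 arrays with limma 3.58.1 in R 4.3.3 (lmFit, eBayes), and VE50 was contrasted with vehicle. P-values are two-sided and adjusted over all probe sets; the threshold is 0.05. Errors beside differences are standard errors of this fit. The fit was tested on simulated data with 50 changed probe sets of each size. Noise was drawn independently for each probe set and array, so no simulated array stood apart as vehicle 3 does. At an adjusted p under 0.05, limma recovered 0 of 50 at a log2 change of 0.5 and 8 at 1.0. It recovered 46 at 2.0 and 50 at 3.0, with 3 false calls. In such simulated data, true changes of the size of most differences described here would mostly be missed at that threshold. Recovery on the real arrays may differ. The number of arrays limits the precision, since arrays give no read depth.

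Groups follow the sample titles. Of the 21340 single-symbol probe sets, 2485 carry predicted or clone names and were counted, not named; 836 probe sets carry several symbols, 27 a symbol turned into a date and 3 none. Of 21130 distinct symbols, 20555 were found in RefSeq. Gene lists (61, with 1124 of 1192 distinct symbols measured) took each symbol's probe set of highest mean signal. The members and lists were chosen with earlier results of these data known. Named genes are, per direction, the 15 with the largest differences past the study's criterion, without overlap of arrays and with the higher group's mean above the median signal; up to 5 per direction past the adjusted threshold when 1 array is left out; and, per list, up to 4 of smallest p, every member past the criterion and 2 of highest signal. Acute phase genes and cell type markers were also covered. Some genes that the rule names are not reported here. For the first of these sets, separation of the arrays is a condition of the choice. The labels do not say that replicate numbers pair the arrays, and they were not treated as pairs in the main fit. The correlations of same-numbered vehicle and VE50 arrays, as deviations from group means, were -0.24, 0.16 and -0.07. Those of arrays with unlike numbers ran from -0.21 to 0.27. With so few arrays this check cannot exclude a shared cage or day.

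Alternatives left out each array, added the replicate number as a block, used the 6 arrays alone, centred or quantile-normalised the arrays, used the value table, left out dim probe sets, weighted arrays, or moderated the variances with a trend. Promoter sequences are from RefSeq (GRCm38.p6); no genome build is named for the arrays in the sources used here.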

Additional observations from a re-analysis of the deposited data

How the results depend on the processing

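The count of probe sets past the adjusted threshold was 0 under every alternative tried but that without vehicle 3, so that leaving out 1 array gave 0 to 10; a moderated F-test over the 3 groups also called 0 of 22206 (1452 at an unadjusted p under 0.05). The count past the study's criterion, 1358 with all arrays, ran from 987 without VE50 2 to 2991 without vehicle 3, and was 2902 with array weights. Leaving out the dimmest probe sets gave 939 of 14798. Of the calls, 54.2% were higher with all arrays and 44.2% without vehicle 3. With the replicate number as a block, 1250 probe sets met the criterion and 0 the adjusted threshold. After the data were seen, 2 control measures were added as covariates: the difference between control medians gave 2799 and the hybridization controls 1388. Single-symbol probe sets without overlap, 2321 with all arrays, numbered 6497 without vehicle 3, a count also added after the data were seen. Of 117 named genes past the criterion, 79 to 95 kept it when 1 vehicle or VE50 array was left out, 99 with the block, 88 in the value table, and 77 and 65 with the covariates. Some of these genes were chosen for separated arrays or for keeping the criterion in each such fit, which raises these counts. Of all 1358 probe sets past the criterion, 718 to 917 kept it in the same direction with 1 vehicle or VE50 array left out. Calls in the opposite direction arose without vehicle 3 for 5 genes, whose differences without 1 array ran from -0.65 to 0.89 (Bhlhe40), -1.13 to 0.80 (Itih4), -0.60 to 0.73 (Rela), -0.64 to 0.52 (Eef2) and -1.42 to 0.92 (Srrm2), and with the control median covariate for Ppara (1.05) and Eng (1.42); the cause was not tested. Of 61 list medians, 12 kept their sign under all 19 alternatives and 24 changed it without vehicle 3. The 24 include the lipoprotein median, which moved from 0.19 to 0.00 and so did not truly change sign. Signals near the negative controls, which include those of Nr1d1, Irs2, Bcl6, Cebpb and Cd163, and at the upper end of the scale limit what the arrays can show, as do 3 arrays per group.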

Other observations

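The following genes outside the lists were chosen after their values were seen. They were picked for roles in RNA processing and for higher signal in VE50. Each kept the study's criterion whichever vehicle or VE50 array was left out. In all, 173 of 21340 single-symbol probe sets of any function, list members included, did so with higher signal and 121 with lower signal. Direction and function are conditions of this choice, and no list or test stands behind these genes as a group. Luc7l and Luc7l2, which encode U1 snRNP-associated proteins, differed from vehicle by 1.32 ± 0.27 and 1.09 ± 0.29 on the log2 scale (SE, n = 3 per group). Luc7l2 read 10.20, 10.92 and 10.16 in vehicle and 11.47, 11.37 and 11.70 in VE50, without overlap. Pcf11, a factor of transcript cleavage and termination, differed by 1.28 ± 0.36, Prpf39, a U1 snRNP factor, by 1.07 ± 0.29, Bclaf1 by 0.93 ± 0.23 and Cpsf6, a subunit of the cleavage factor that selects polyadenylation sites, by 0.79 ± 0.22. Ccnl1, a cyclin of nuclear speckles, differed by 0.84 ± 0.27 with all arrays and by 0.56 without vehicle 3. Nop58, a core protein of box C/D small nucleolar RNPs, differed by 0.84 ± 0.21. None had an adjusted p under 0.05 in limma, all were at 0.794, and Luc7l, Pcf11 and Nop58 lay below the 95th percentile of negative controls on all 6 arrays.

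The cytosolic tRNA synthetase genes Tars and Hars, also chosen after their values were seen, differed from vehicle in opposite directions. Tars read 11.98, 11.49 and 11.72 in vehicle and 10.45, 10.56 and 10.92 in VE50, all lower, with a difference of -1.09 ± 0.27. Hars read 8.74, 9.05 and 8.75 against 9.48, 9.55 and 9.54, all higher, with a difference of 0.68 ± 0.19. No gene list was made for this family, so Tars and Hars do not describe its other members.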
